A study of Mus musculus with 12 samples.

Results

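The levels of 10 marker genes of alveolar type 1 (AT1) cells are described here. AT1 cells themselves were not sorted. The genes were Ager, Hopx, Pdpn, Aqp5, Akap5, Rtkn2, Clic5, Emp2, Igfbp2 and Cav1. They were taken by gene symbol from a list that was drawn up with earlier results of these data known. All 10 were found among the 23238 gene symbols of the count files, and 9 of the 10 passed the low-count filter, which left 13054 genes for testing. Igfbp2 did not pass it and was not tested.

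RNA was taken from cells sorted from mouse lung as alveolar type 2 (ATII) cells, positive for CD74 and EpCAM, with 1 mouse behind each of 12 libraries and 3 libraries in each of 4 groups. Con and BLM were the groups without deletion of p300 (gene Ep300, a histone acetyltransferase), given PBS or bleomycin, and KO and KOBLM were the groups with ATII-specific deletion, given PBS or bleomycin. Bleomycin, which causes DNA strand breaks and epithelial injury in the lung, was instilled into the trachea at 4 mg/kg. The deletion used floxed p300 alleles and a CreERT2 driven by the Spc (Sftpc) promoter, induced by tamoxifen at 10 mg/kg in 8-week-old mice, so it was directed to cells that use this promoter. The labels give every group the tamoxifen treatment and call Con wild type, while the study's text describes the control mice as carrying the floxed alleles without deletion and its methods for the sorted cells name C57BL/6 mice. Whether the control genotype was floxed or wild type is therefore not settled here. A supplementary legend on the isolated ATII cells names vehicle or tamoxifen treatment, unlike the labels. If the undeleted mice had vehicle, tamoxifen and deletion cannot be told apart between the genotypes. The day after bleomycin on which these cells were taken is not given in the sources used here.

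AT1 cells are the thin, flat cells that cover most of the alveolar surface and form the air side of the gas exchange barrier. ATII cells are cuboidal, make surfactant, and act as progenitors that can flatten and take on AT1 genes after injury. Several of these genes are not exclusive to AT1 cells. Cav1, Clic5 and Emp2 are also used by endothelial cells, and Pdpn by lymphatic endothelium, some fibroblasts and activated macrophages.

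The libraries held 7005005 to 11153154 counts, and levels are given as CPM (counts in every 1000000 counts, after TMM normalization of the totals). The detection floor of 3 counts was 0.216 to 0.493 CPM, and it covers counting error only, as the sources describe no molecular identifiers. BLM 3 stood apart. It had counts on 6847 genes against 8790 to 13838 in the other libraries, of which KO 3 (8790) and KOBLM 2 (9018) were lowest. Over all gene symbols, before the low-count filter, the Spearman correlation of BLM 3 with BLM 1 and BLM 2 was 0.593 to 0.598. Other pairs within a group had 0.777 to 0.909. In BLM 3 the 10 pluripotency genes reached a sum of 1981 CPM, where the other libraries had 0.581 to 18.1 CPM. The sum, the member medians and the members whose values BLM 3 moved most are also given without it. The sum of 12 ATII markers ran from 769 to 3674 CPM and that of 12 macrophage markers from 748 to 33941 CPM, and Sftpc, which defines ATII cells, was at 0.604 to 617 CPM. Cd74, one of the 12 ATII markers, averaged 1088 of the mean sum of 2386 CPM in Con and 1434 of 2021 CPM in BLM. It averaged 825 of 1384 CPM in KO and 783 of 1204 CPM in KOBLM. Ep300 averaged 109 ± 53.3 CPM (SD, n = 3) in Con and 142 ± 46.3 CPM in the libraries labelled KO, and 85.1 ± 45.3 CPM in BLM and 111 ± 62.1 CPM in KOBLM. The KO and KOBLM means were not below those of Con and BLM. A 3′ count outside the deleted exon 9 does not test the deletion. The paper itself reports the loss of p300 by qRT-PCR in primary ATII cells and by co-immunofluorescence in lung.

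The 10 genes lie on 9 chromosomes, as Ager and Clic5 share chromosome 17. Ager spans chr17:34597862-34600936 on the plus strand (GRCm38, GENCODE M21), with 11 exons, and its end lies 154 bases from Rnf5, a gene on the opposite strand. Hopx, Rtkn2 and Cav1 overlap antisense genes (Hopxos, Gm16212 and Gm15581), and whether the reads were counted by strand is not given in the sources used here. RefSeq promoters of 300 bases (GRCm38.p6, from 250 before the transcription start to 50 after it) were found for 9 of the 10 genes, 12 promoters in all. Promoters are shown for Ager, the single member that passed the test below, and for Clic5 and Emp2, chosen after their levels were seen, as KOBLM 1 was the highest library for both. Each is written 5′ to 3′ on the strand of its gene, and capitals mark the CpG dinucleotides. Ager is at chr17:34597600-34597899 (plus strand), Clic5 at chr17:44188322-44188621 (plus strand) and Emp2 at chr16:10313919-10314218 (minus strand).
Ager: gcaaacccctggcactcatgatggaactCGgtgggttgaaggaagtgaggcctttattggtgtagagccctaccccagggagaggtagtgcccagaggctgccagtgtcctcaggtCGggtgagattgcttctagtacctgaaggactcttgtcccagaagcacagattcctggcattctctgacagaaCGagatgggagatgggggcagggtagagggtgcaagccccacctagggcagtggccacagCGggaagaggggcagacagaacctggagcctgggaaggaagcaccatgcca
Clic5: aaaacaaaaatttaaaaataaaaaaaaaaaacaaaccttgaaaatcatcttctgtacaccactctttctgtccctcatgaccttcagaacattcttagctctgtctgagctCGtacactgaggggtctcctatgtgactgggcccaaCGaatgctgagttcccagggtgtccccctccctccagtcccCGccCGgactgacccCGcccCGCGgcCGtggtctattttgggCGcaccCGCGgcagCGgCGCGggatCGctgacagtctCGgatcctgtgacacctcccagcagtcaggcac
Emp2: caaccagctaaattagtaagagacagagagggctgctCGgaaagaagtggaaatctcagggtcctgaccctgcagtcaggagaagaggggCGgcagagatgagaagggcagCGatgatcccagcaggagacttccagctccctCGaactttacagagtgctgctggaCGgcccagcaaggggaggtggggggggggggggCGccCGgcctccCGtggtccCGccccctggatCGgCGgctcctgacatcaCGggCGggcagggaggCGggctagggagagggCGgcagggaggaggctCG

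The Ager promoter held 4 CpG dinucleotides and was 58.3% G and C, and the Clic5 and Emp2 promoters held 16 each and were 54.3% and 65.7% G and C. The median over all 32851 promoters was 7 CpG and 52.7%. GGAATG, the motif of the TEAD factors that carry out Hippo pathway signalling, was in 0 of the 12 promoters of the members on either strand, against 14.7% of all promoters. TTNNGNAA, a motif of the C/EBP factors, was in 2 of the 12, the second promoters of Hopx and Igfbp2, against 40.7% of all promoters. These matches describe letters in a short window and say nothing about binding.

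In every library 1 to 4 of the 10 members were at 0 counts. Their summed level was 533, 709 and 591 CPM in Con 1, 2 and 3, and 872, 660 and 927 CPM in BLM. It was 477, 619 and 112 CPM in KO, and 1091, 247 and 655 CPM in KOBLM. KO 3 and KOBLM 2 had the lowest sums of their groups and also the fewest genes with a count, at 8790 and 9018. They had 4 and 3 members at 0. BLM 3 and Con 3 also had the fewest genes with a count in their groups, at 6847 and 10246, but not the lowest sums. The part of gene detection in the low sums of KO 3 and KOBLM 2 was not tested. The means were 611 ± 89.7 CPM in Con, 820 ± 141 CPM in BLM, 402 ± 262 CPM in KO and 664 ± 422 CPM in KOBLM (SD, n = 3 each), and the SD within KOBLM exceeded every difference between group means. In BLM 3, Igfbp2 made up 28.4% of the sum, and without Igfbp2 that library summed to 664 CPM. The BLM mean without BLM 3 was 766 CPM.

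**Figure D1:**
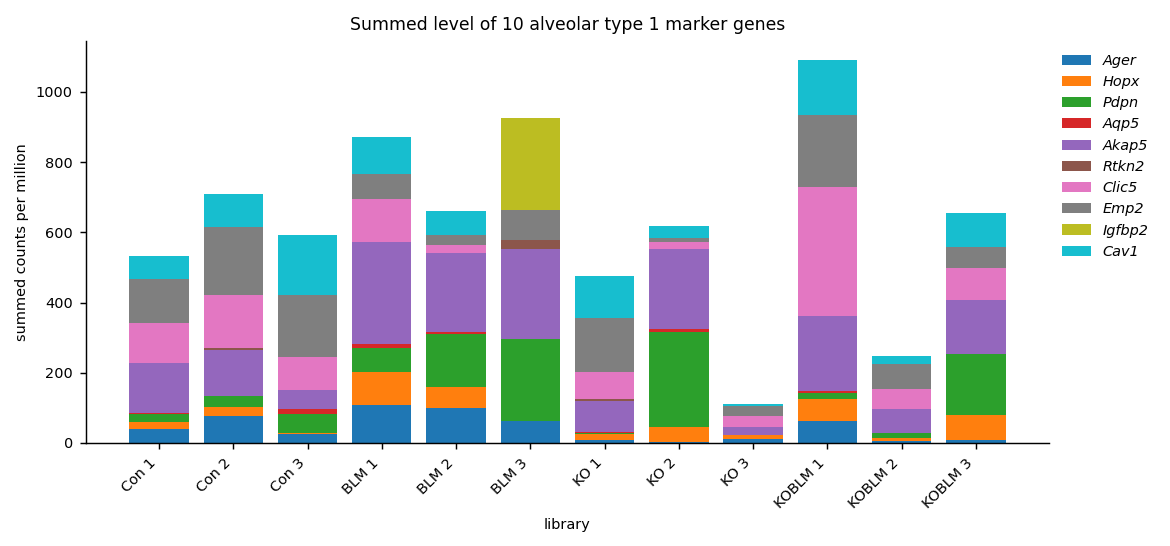
Stacked bars give the summed CPM of the 10 AT1 marker genes in each of the 12 libraries, with 1 colour per gene. KO 3 has the lowest sum (112 CPM) and KOBLM 1 the highest (1091 CPM), and the gene with the largest part differs between libraries of the same group.

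The make-up of the sum also varied between mice of one group. QuantSeq reads come from the 3′ end of a transcript, so counts were compared between genes without division by length. Akap5 held the largest part in Con 1, BLM 1 and BLM 2 (27.0%, 33.4% and 33.8%), Emp2 in Con 2, Con 3, KO 1 and KOBLM 2, Pdpn in KO 2 (43.8%) and KOBLM 3 (26.4%), Clic5 in KO 3 and KOBLM 1, and Igfbp2 in BLM 3. Averaged over the 12 libraries, Akap5 was the most abundant member at 157 CPM, followed by Emp2 at 101 CPM, Clic5 at 95.9 CPM, Pdpn at 86.3 CPM and Cav1 at 78.2 CPM. Ager averaged 42.8 CPM and Hopx 34.7 CPM, while Aqp5 and Rtkn2 averaged 3.96 and 2.94 CPM.

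The threshold for a change was a fold change above 1.5 together with an unadjusted p below 0.05 in edgeR's quasi-likelihood test of all 4 groups. By this rule 0 of the 9 tested members changed in BLM against Con, against 4.27% of all tested genes, and 1 of 9 changed in KO against Con, against 1.44%. The count was 0 of 9 in KOBLM against BLM (3.16% of all genes), 0 of 9 in KOBLM against KO (1.69%) and 0 of 9 for the interaction of genotype and bleomycin (2.82%). A Benjamini-Hochberg adjusted p under 0.05 was reached by 0 members and by 0% of all genes in each of the 5 comparisons with edgeR (every member had an adjusted p of 1), where 558, 188, 413, 221 and 368 genes had an unadjusted p under 0.05 in the order given, and by 114, 80, 78, 57 and 85 genes with DESeq2, none of them a member. Groups that did not overlap, with every library of one group above every library of the other, were seen for 3 of 9 members in BLM against Con (16% of all genes), 2 of 9 in KO against Con (9.09%), 2 of 9 in KOBLM against BLM (10.8%) and 0 of 9 in KOBLM against KO (6.87%). With 3 mice against 3, the exact permutation test cannot give a p under 0.1. Con enters both of the first comparisons, and BLM, KO and KOBLM also each enter a pair of comparisons, so their results are not independent of each other.

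The median log2 fold change of the 9 members was 0.93 in BLM against Con, beside -0.08 over all genes, and -0.76 in KO against Con, beside -0.09. It was -0.83 in KOBLM against BLM, beside 0.10, and 0.77 in KOBLM against KO, beside 0.08. These medians did not move when Rtkn2, at 0 in all KOBLM libraries, was set to its bound. Without BLM 3 the median in BLM against Con was 0.94 over the 8 members with a library above the floor in each group. It was 0.75 over all 9 members in the fit, beside 0.05 over all genes. In KOBLM against BLM it was -0.69 over the 8 members and -0.68 over the 9, beside -0.06 over all genes. Markers of other cell types also moved in BLM against Con. Their median log2 fold change was -2.06 for ATII markers (8 of 11 negative) and -1.12 for endothelial markers (10 of 12 negative). It was -1.10 for macrophage markers (8 of 12 negative) and 1.58 for fibroblast markers (6 of 7 positive). The part of these shifts in the medians of the members was not tested. In bulk RNA, fewer cells of a type and less RNA per cell cannot be told apart.

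**Figure D2:**
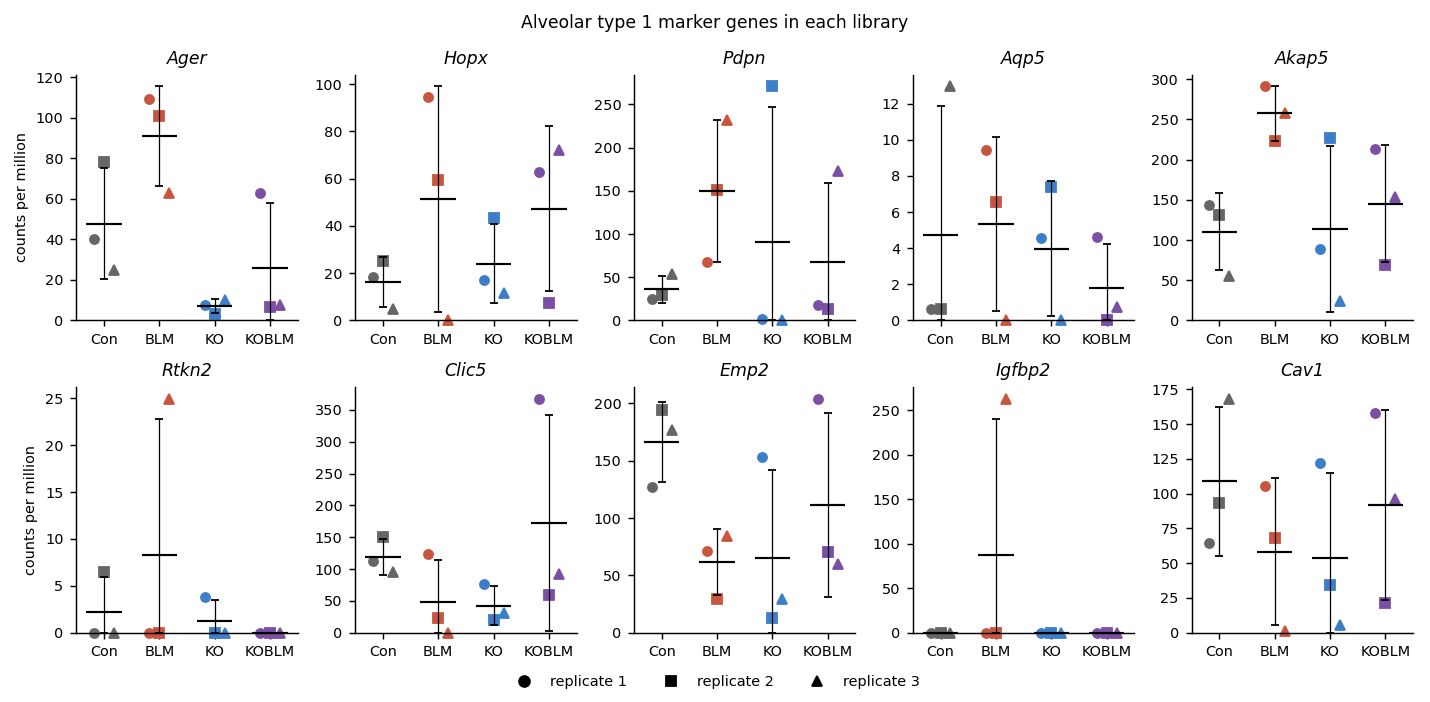
Each panel gives the CPM of 1 AT1 marker gene in the 12 libraries, with the marker shape giving the replicate number, a bar at the group mean and a whisker of 1 SD (n = 3), drawn no lower than 0. Ager lies below 10 CPM in all KO libraries and above 24 CPM in all Con and BLM libraries, whereas Igfbp2 stands in BLM 3 alone.

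Ager encodes the receptor for advanced glycation end products (RAGE), an immunoglobulin-family receptor that is concentrated on the basal side of AT1 cells. It was at 40.4, 78.0 and 24.9 CPM in Con 1, 2 and 3, at 109, 101 and 63.0 CPM in BLM, at 7.61, 3.12 and 9.96 CPM in KO, and at 62.8, 6.59 and 7.73 CPM in KOBLM. Every KO library was below every Con library. KOBLM 1 was close to the lowest BLM library while KOBLM 2 and KOBLM 3 were at the level of KO.

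Ager was the one member that passed the test. It was lower in KO than in Con by a log2 fold change of -2.79 ± 1.07 (SE), with an unadjusted p of 0.021 and an adjusted p of 1 in edgeR's quasi-likelihood test, and the exact permutation test of the CPM gave p = 0.1, its smallest value. The call was lost without Con 2 (-2.24, unadjusted p = 0.0883) and without KO 2 (-2.40, unadjusted p = 0.0757), and kept without BLM 3 (-2.79, unadjusted p = 0.0108). In KOBLM against BLM the log2 fold change was -1.82 ± 1.04 (unadjusted p = 0.0997, exact permutation p = 0.1), with groups that did not overlap but nearly met, at 62.8 CPM in KOBLM 1 and 63.0 CPM in BLM 3. Without KOBLM 1 the difference passed the threshold (-3.62, unadjusted p = 0.0104), and without KOBLM 2 it was -1.37 (unadjusted p = 0.221). Without KOBLM 1, 335 of all genes passed in this comparison, against 413 with every library. Bleomycin gave 0.93 ± 1.01 in the undeleted mice (unadjusted p = 0.373) and 1.89 ± 1.04 in the deleted mice (unadjusted p = 0.0896), the latter ranging from 0.04 without KOBLM 1 (unadjusted p = 0.970) to 2.35 without KOBLM 2 (unadjusted p = 0.0379), so that it rested on KOBLM 1. Without KOBLM 2, 174 of all genes passed in KOBLM against KO, against 221 with every library. The interaction was 0.96 ± 1.42 (unadjusted p = 0.509). The neighbouring gene Rnf5, chosen for its position, averaged 45.2 ± 27.0 CPM in Con and 37.3 ± 20.1 CPM in KO (SD, n = 3). Several marker lists of other cell types also had negative medians in KO against Con. The median log2 fold change was -1.06 for ATII markers (9 of 11 negative), -1.51 for airway markers (4 of 4 negative), -1.81 for endothelial markers (12 of 12 negative) and -1.82 for lymphatic markers (5 of 5 negative), and 0.19 for macrophage markers (10 of 12 positive). The ATII marker sum was 1070 to 3674 CPM in Con and 769 to 2057 CPM in KO, of which Cd74 averaged 1088 and 825 CPM. The macrophage marker sum was 9806 to 20934 CPM in Con and 11998 to 33941 CPM in KO. The part of these shifts in the Ager result was not tested.

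Of 4 ligands of RAGE, 3 passed the filter and 0 changed in any comparison, where 1.44% to 4.27% of all genes did. The most abundant were S100a9, S100a8 and Hmgb1, the first pair being alarmins of neutrophils and monocytes and the last a chromatin protein released by injured cells. S100a9 was at 53.2, 141 and 2054 CPM in Con and at 192, 449 and 152 CPM in KO. Hmgb1 was between 15.3 and 123 CPM in all libraries.

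Hopx encodes a small homeodomain protein that does not bind DNA and is used as a nuclear marker of AT1 cells. Its level was 18.4, 25.3 and 4.82 CPM in Con and 94.5, 59.4 and 0 CPM in BLM, where BLM 3 is the library at 0. It was 17.2, 43.2 and 11.6 CPM in KO and 62.7, 7.25 and 71.9 CPM in KOBLM. BLM 1 and BLM 2 were above all Con libraries and BLM 3 was below them. The log2 fold change of BLM against Con was 1.66 ± 1.62 (unadjusted p = 0.322) with BLM 3 and 2.25 ± 1.02 without it, with an unadjusted p of 0.0439 and an adjusted p of 0.884 in edgeR's quasi-likelihood test, when 5.45% of all genes passed the same rule. Without BLM 1 it was 0.87 (unadjusted p = 0.643). In KOBLM against KO it was 0.98 ± 1.59 (unadjusted p = 0.549). Between the genotypes the differences were smaller than their errors, at 0.57 ± 1.58 in KO against Con and -0.12 ± 1.58 in KOBLM against BLM.

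Pdpn encodes podoplanin, a mucin-like glycoprotein of the apical membrane once known as T1α. It was at 24.7, 29.1 and 53.7 CPM in Con and at 67.5, 150 and 232 CPM in BLM, so every BLM library was above every Con library. The log2 fold change was 2.06 ± 1.73, with unadjusted p = 0.254 in edgeR's quasi-likelihood test and unadjusted p = 0.1 in the exact permutation test. Without BLM 3 it was 1.60 ± 1.75 (unadjusted p = 0.374). In KO it was at 2.22, 271 and 0 CPM, and in KOBLM at 17.6, 13.6 and 173 CPM. KO 2 alone therefore set the KO mean. With it, KO against Con was 1.34 ± 1.70 (unadjusted p = 0.442) and KOBLM against KO was -0.42 ± 1.67 (unadjusted p = 0.805). Without it both passed the threshold with the opposite sign, at -5.00 (unadjusted p = 0.0125) and 5.92 (unadjusted p = 0.00596). In that fit 88 and 180 of all genes passed, against 188 and 221 with every library. The sum of 5 lymphatic markers was 9.36 CPM in KO 2 and that of 9 fibroblast markers was 350 CPM in KO 2. Fibroblast markers summed to 928 to 2013 CPM in BLM and 103 to 485 CPM in Con, and their part in the Pdpn result was not tested.

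Aqp5 encodes the apical water channel of AT1 cells and was near the floor in many libraries. It had 5, 6 and 148 counts in Con, 65, 45 and 0 in BLM, 43, 45 and 0 in KO and 33, 0 and 6 in KOBLM. Con 3 had the highest level at 13.0 CPM. The 4 comparisons had log2 fold changes of -1.58 to 0.17 with standard errors of 2.82 to 2.89, and none passed the threshold.

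Akap5 encodes an anchoring protein that holds protein kinase A and calcineurin at the membrane. It was at 144, 131 and 55.2 CPM in Con and at 291, 223 and 258 CPM in BLM, the only group in which the lowest library exceeded 200 CPM. It was at 89.1, 227 and 24.6 CPM in KO and at 213, 68.9 and 154 CPM in KOBLM. Every BLM library was above every Con library and every KOBLM library. The log2 fold change was 1.23 ± 0.73 in BLM against Con (unadjusted p = 0.116 in edgeR's quasi-likelihood test, exact permutation p = 0.1) and -0.83 ± 0.73 in KOBLM against BLM (unadjusted p = 0.275, exact permutation p = 0.1). Leaving out BLM 3 gave 1.22 and -0.82. Without bleomycin the means were 110 ± 47.9 CPM in Con and 114 ± 103 CPM in KO (SD, n = 3), with a log2 fold change of 0.04 ± 0.72 in KO against Con. Bleomycin in the deleted mice gave 0.36 ± 0.72 (unadjusted p = 0.631), and the interaction of -0.87 ± 1.02 did not pass the threshold (unadjusted p = 0.409).

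Rtkn2 encodes rhotekin 2. It was above the floor in 3 of the 12 libraries, at 60 counts in Con 2, 347 in BLM 3 and 36 in KO 1, and at 0 in the other 9. Igfbp2 encodes a secreted binding protein for insulin-like growth factors that marks mature AT1 cells. It had 3657 counts (263 CPM) in BLM 3, 1 count each in KOBLM 1 and KOBLM 3, and 0 in the other 9 libraries. The high values of both genes thus came in the library that also held the pluripotency genes, and the groups cannot be compared for them.

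Clic5 encodes a chloride intracellular channel protein that links membrane and cortical actin. It was at 113, 150 and 94.7 CPM in Con and at 124, 22.4 and 0 CPM in BLM, with BLM 3 the library at 0. It was at 77.0, 19.7 and 30.5 CPM in KO and at 368, 58.8 and 92.0 CPM in KOBLM. Every KO library was below every Con library, with a log2 fold change of -1.49 ± 1.42 (unadjusted p = 0.309 in edgeR's quasi-likelihood test, exact permutation p = 0.1). KOBLM against KO gave 2.03 ± 1.44 (unadjusted p = 0.181), and KOBLM against BLM gave 1.83 ± 1.43 (unadjusted p = 0.221). The interaction was 3.32 ± 2.01 (unadjusted p = 0.12). KOBLM 1 carried the KOBLM mean, and without it KOBLM against KO was 0.82 (unadjusted p = 0.604) and KOBLM against BLM 0.67 (unadjusted p = 0.672). Without BLM 3, KOBLM against BLM was 1.24 (unadjusted p = 0.169), while KOBLM against KO, at 2.02 (unadjusted p = 0.0188), and the interaction, at 2.74 (unadjusted p = 0.0313), passed the threshold. Without BLM 3, 3.07% of all genes passed in KOBLM against KO and 4.63% for the interaction. Without BLM 1, KOBLM against BLM was 3.95 (unadjusted p = 0.0365) and the interaction 5.45 (unadjusted p = 0.0224). In that last fit 421 and 478 of all genes passed, against 413 and 368 with every library.

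Emp2 encodes a tetraspan membrane protein that is abundant on AT1 cells. Its level was 127, 195 and 177 CPM in Con and 71.1, 29.7 and 84.4 CPM in BLM, and it was the one member whose BLM libraries were all below Con. It was at 153, 13.1 and 29.3 CPM in KO and at 204, 70.2 and 59.8 CPM in KOBLM. The log2 fold change of BLM against Con was -1.43 ± 0.86 (unadjusted p = 0.119 in edgeR's quasi-likelihood test, exact permutation p = 0.1), and -1.72 without BLM 3 (unadjusted p = 0.0738). KO against Con was -1.35 ± 0.86 (unadjusted p = 0.138), KOBLM against KO 0.77 ± 0.85 (unadjusted p = 0.378) and the interaction 2.20 ± 1.21 (unadjusted p = 0.0895). KO 1 was at the level of Con, unlike KO 2 and KO 3. Without KO 1, KO against Con was -2.97 (unadjusted p = 0.00625), KOBLM against KO 2.39 (unadjusted p = 0.0184) and the interaction 3.82 (unadjusted p = 0.00534). In that fit 446, 402 and 672 of all genes passed, against 188, 221 and 368 with every library. The interaction also passed without BLM 3 (2.49, unadjusted p = 0.0496), as did 4.63% of all genes. Without KOBLM 1, KOBLM against KO was -0.0056 (unadjusted p = 0.995).

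Cav1 encodes caveolin 1, which shapes the membrane pits called caveolae. It was at 64.8, 93.5 and 168 CPM in Con and at 105, 68.0 and 0.936 CPM in BLM. It was at 122, 34.2 and 5.48 CPM in KO and at 158, 21.5 and 96.1 CPM in KOBLM. All groups overlapped. Its log2 fold changes were -0.91 ± 1.25 in BLM against Con, -1.01 ± 1.25 in KO against Con, 0.66 ± 1.25 in KOBLM against BLM and 0.77 ± 1.25 in KOBLM against KO, with unadjusted p values of 0.432 to 0.603 in edgeR's quasi-likelihood test. Leaving out BLM 3 moved the first to -0.33 and the third to 0.08.

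**Figure D3:**
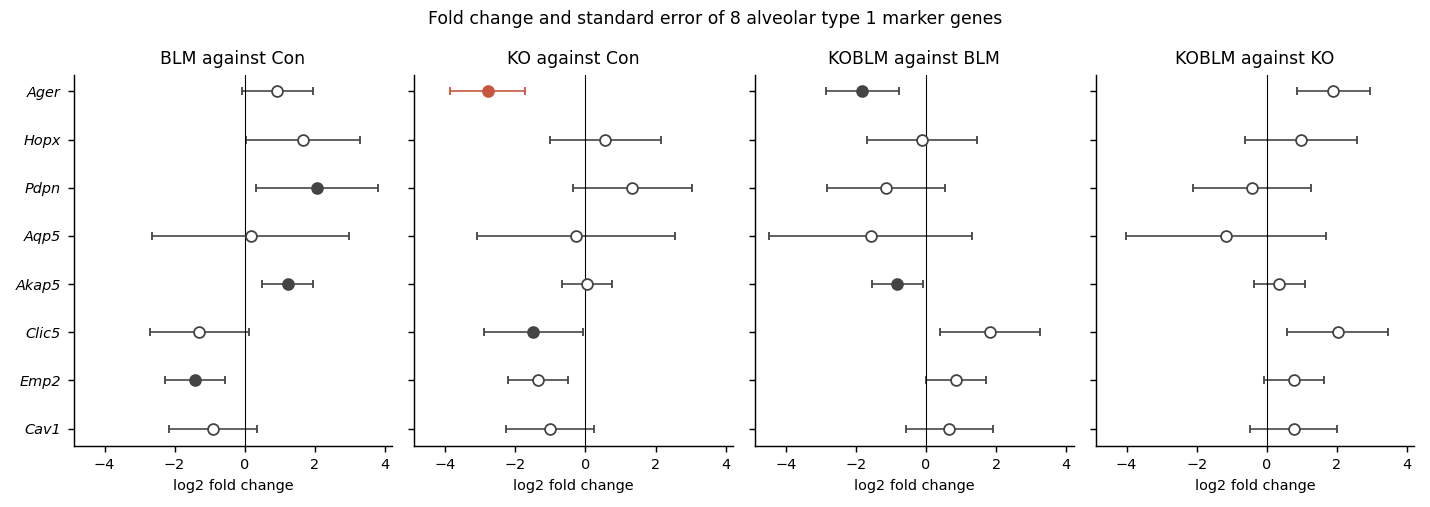
Points give the log2 fold change of 8 AT1 marker genes in each comparison, with 1 standard error from edgeR. The red point is the difference that passed the threshold (Ager in KO against Con, -2.79), filled grey points are those whose groups did not overlap, and open points those whose groups overlapped.

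By group mean, BLM was the highest group for Ager, Hopx, Pdpn, Aqp5, Akap5, Rtkn2 and Igfbp2, Con for Emp2 and Cav1, and KOBLM for Clic5. For Rtkn2 and Igfbp2 this order came from BLM 3. Among groups next to each other in these orders, Akap5 in BLM and KOBLM was the one pair whose libraries did not overlap.

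Clic5, Emp2 and Cav1 had a further measurement beside them. The summed level of 12 endothelial markers was 879 to 1659 CPM in Con, 241 to 1215 CPM in BLM, 112 to 791 CPM in KO and 463 to 2786 CPM in KOBLM, so every KO library was below every Con library, as for Clic5 but not for Emp2 or Cav1. KOBLM 1 had the highest level of Clic5, Emp2 and the endothelial markers, and KO 2 the lowest Emp2 and the lowest endothelial sum. Of the 12 markers, 12 had counts in all Con libraries, in BLM 1, BLM 2, KO 1, KOBLM 1 and KOBLM 3, whereas 7 were at 0 in BLM 3 and in KO 3, 2 in KO 2 and 3 in KOBLM 2. Cdh5, the endothelial cadherin, was above 0 in every library and Pecam1 was at 0 in KO 3. In KO against Con 12 of the 12 had a negative log2 fold change and 0 changed (1.44% of all genes). In KOBLM against KO 12 of the 12 had a positive log2 fold change and 0 changed (1.69%). For the interaction 1 of the 12 changed (2.82%). Kdr, the main receptor for vascular endothelial growth factor, passed the threshold for the interaction (3.03 ± 1.31, unadjusted p = 0.0361 and adjusted p = 1 in edgeR's quasi-likelihood test), a call that was lost in 7 of the 12 fits that each left out a library. The part of these cells in the levels of Clic5, Emp2 and Cav1 was not tested.

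**Figure D4:**
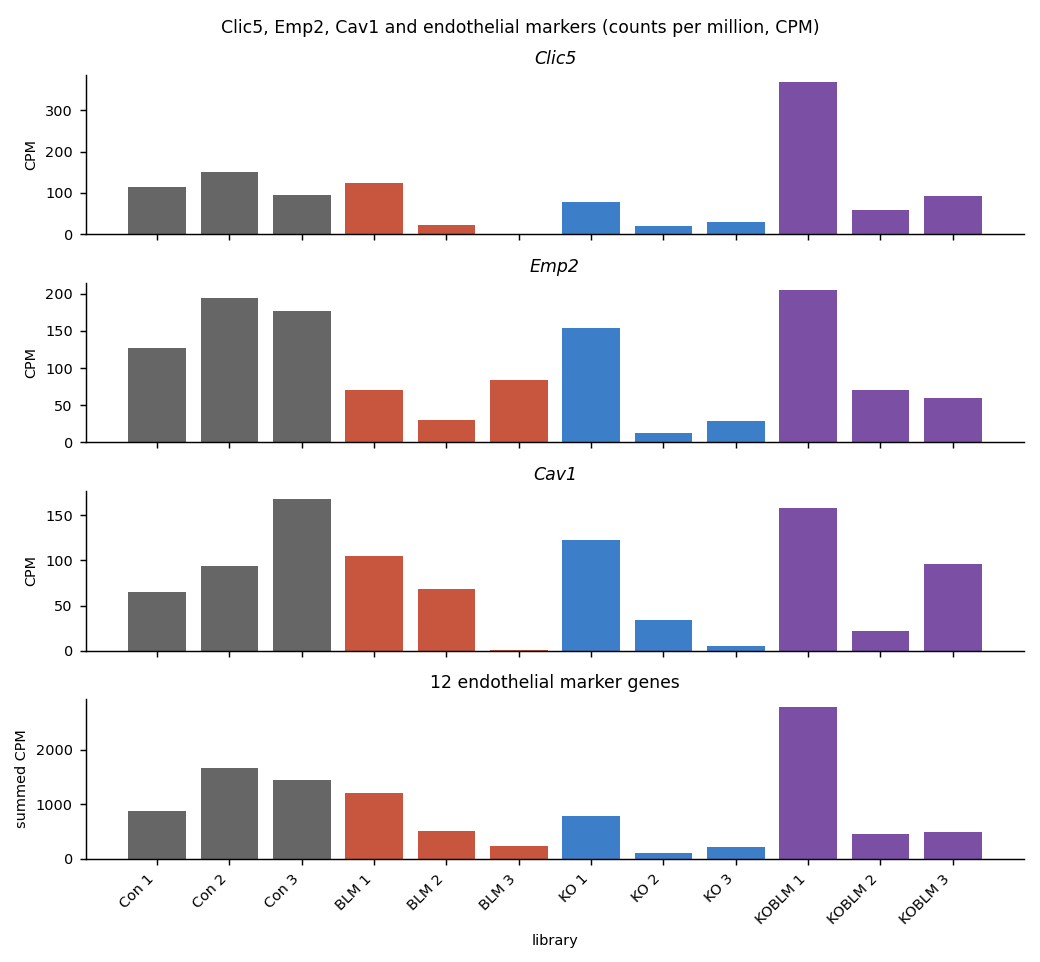
Bars give the CPM of Clic5, Emp2 and Cav1 and the summed CPM of 12 endothelial marker genes in the 12 libraries, coloured by group. KOBLM 1 is the highest library for Clic5 (368 CPM), Emp2 (204 CPM) and the endothelial sum (2786 CPM), and KO 2 and KO 3 are low in all 4 panels.

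The partners of caveolin were measured with it. All 5 of them passed the filter, and 2 changed in some comparison. The count was 1 of 5 in BLM against Con (4.27% of all genes), KO against Con (1.44%) and KOBLM against BLM (3.16%). It was 1 of 5 in KOBLM against KO (1.69%) and 2 of 5 for the interaction (2.82%). Cavin2 (listed as Sdpr), a cavin coat protein that is abundant in endothelium, fell in BLM against Con by a log2 fold change of -2.44 ± 1.04 (unadjusted p = 0.0341, adjusted p = 0.995 in edgeR's quasi-likelihood test), from 173, 365 and 173 CPM to 98.7, 30.3 and 1.80 CPM. It was higher in KOBLM than in BLM (2.53 ± 1.05, unadjusted p = 0.0298) and passed for the interaction (3.69 ± 1.44, unadjusted p = 0.0227). Cavin1 (listed as Ptrf), the cavin required for caveolae, was lower in KO, at 46.4, 39.6 and 13.6 CPM, than in Con, at 98.6, 130 and 70.6 CPM (-1.59 ± 0.67, unadjusted p = 0.0326). It was higher in KOBLM, at 264, 221 and 72.0 CPM, than in KO (2.48 ± 0.69, unadjusted p = 0.00288), and its interaction was 2.42 ± 0.94 (unadjusted p = 0.0217). These p values are unadjusted, and the adjusted p was 1 for Cavin1 in each comparison. The calls of Cavin2 were kept without BLM 3 (-1.88, 1.96 and 3.12) and each was lost in 2 of the 12 fits that left out a library, Con 2 and BLM 2 for the first, BLM 2 and KOBLM 1 for the second, and Con 2 and KOBLM 1 for the interaction. The higher Cavin1 in KOBLM was kept in 12 of 12 such fits, while its lower level in KO was lost in 4 (without Con 1, Con 2, KO 2 or KO 3) and its interaction in 3 (without Con 2, BLM 2 or KOBLM 1).

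A second list of 25 genes enriched in AT1 cells was examined beside the members, of which 20 passed the filter. Of all tested genes, 4.27% passed the threshold in BLM against Con, 1.44% in KO against Con and 3.16% in KOBLM against BLM. The share was 1.69% in KOBLM against KO and 2.82% for the interaction. In BLM against Con 1 rose and 1 fell, and the median log2 fold change was 0.78, beside -0.08 over all genes. S100a6, a calcium-binding protein of many spreading cells, rose by 3.34 ± 0.97 (unadjusted p = 0.00376, adjusted p = 0.995 in edgeR's quasi-likelihood test), from 173, 115 and 239 CPM in Con to 2973, 2165 and 218 CPM in BLM, and it passed in 12 of the 12 fits that left out a library, with 3.87 without BLM 3. Egfl6, a secreted matrix protein, fell, with 4.95, 26.5 and 0 CPM in Con and 0 in all BLM libraries, a call that was lost in 8 of the 12 fits. In KO against Con 0 of the 20 changed, with 15 negative and a median of -1.39. In KOBLM against BLM 0 changed, with a median of -0.27, or -0.37 with genes at 0 in a group set to their bound. In KOBLM against KO 1 rose, Timp3, an inhibitor of matrix metalloproteinases, by 2.47 ± 1.05 (unadjusted p = 0.0332), from 58.5, 49.6 and 2.32 CPM to 469, 56.3 and 85.6 CPM, and the median was 1.94, or 1.90 with such genes at their bound. The call of Timp3 was lost without KO 3 and without KOBLM 1. S100a6 also passed for the interaction (-3.09 ± 1.28, unadjusted p = 0.0294), which was lost in 5 of the 12 fits, without Con 2, BLM 1, KO 2, KOBLM 1 or KOBLM 2.

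Of 13 regulators of alveolar cell fate, 10 passed the filter and 1 changed, in KOBLM against BLM, where 3.16% of all genes passed. Foxa2, a forkhead factor of lung epithelium, was at 13.4, 1.61 and 0.144 CPM in BLM and at 0 in all KOBLM libraries, with an unadjusted p of 0.0462 and an adjusted p of 1 in edgeR's quasi-likelihood test. The call was lost in 10 of the 12 fits that left out a library. Foxa2 was also at 0 in all KO libraries, and at 3.93, 7.12 and 0 CPM in Con. The most abundant of the list were Cebpa, Wwtr1 and Etv5. Wwtr1, the Hippo pathway coactivator TAZ, was at 97.1, 120 and 50.2 CPM in Con and 126, 36.5 and 79.7 CPM in KO. Median log2 fold changes of the list were -0.15 in BLM against Con, -1.14 in KO against Con, -1.61 in KOBLM against BLM and 0.00 in KOBLM against KO, the third becoming -1.19 and the last 0.18 with genes at 0 in a group set to their bound.

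The genes whose levels over the 12 libraries were most like those of each member were found by Spearman correlation among the genes with a mean of at least 10 CPM, given as a description. For Clic5 they were Ptprb (0.98), Adgrf5 (0.95) and Cldn5 (0.95), and for Emp2 they were Tmem204 (0.93), Taok2 (0.90) and Kdr (0.90). Cav1 was nearest to Hoxa5 (0.96), Coq10a (0.94) and Il1rap (0.93). Ager was nearest to Fgfr1 (0.91), Gpx3 (0.89) and Zbed6 (0.89), and Hopx to Ccrl2 (0.97), Socs6 (0.96) and Slfn2 (0.96). Pdpn was nearest to Scamp4 (0.95), Pacsin2 (0.93) and Anpep (0.92), and Akap5 to Arid5a (0.98), Lrrc17 (0.97) and Fmnl2 (0.96). Aqp5 was nearest to Ssbp1 (0.96), Taf9b (0.94) and Ifit3 (0.92), and Rtkn2, at 0 in 9 libraries, to Yap1 (0.79), Nanp (0.78) and Shmt1 (0.76). No other member was among the nearest genes of a member. All genes of a library share its depth and composition, and the measure carries no test.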

How the data were processed

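QuantSeq 3′ RNA libraries (single-end reads) of sorted ATII cells from 12 mice were analysed, 3 in each of Con, BLM, KO and KOBLM, grouped by the labels. The authors deposited raw counts per gene symbol without normalization. The submitters' processing notes name Bowtie2, edgeR and mm10, without versions, and trimming and the counting program are not given in the sources used here. The files list 23282 entries, and 35 symbols listed more than once were summed.

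Counts were filtered with filterByExpr (minimum count 10, total 15), scaled by TMM and fitted with edgeR 4.0.16 in a quasi-likelihood model of 4 groups (R 4.3.3). All p values are two-sided, standard errors were taken as the log2 fold change over the root of F, and CPM were compared by exact permutation tests. The fitted common dispersion was 2.08. On simulated BLM against Con data with 200 genes changed 8-fold and a dispersion of 2, 56 passed the threshold and 0 an adjusted p under 0.05, and with a dispersion of 0.05, 200 did. Whether mice of a group came from separate litters is not given, and the tests treat each library as independent. The edgeR p values rest on a spread estimated over all 4 groups and shared across genes. The exact permutation p values rest on the libraries of the 2 groups compared. Depth was 7005005 to 11153154 counts, and 3 counts were the floor.

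The members and lists were chosen with earlier results of these data known. All 10 members are named, as are Ep300 and the 3 genes most alike to each member with a mean of at least 10 CPM. Of the RAGE ligands, caveolin partners, fate regulators, endothelial markers and second AT1 list, those that changed or else the 3 most abundant are named. Sftpc and Cd74 are named as ATII markers. Changed genes of other lists are not named. In BLM against Con (4.27% of all genes), 2 of 11 ATII markers fell and 2 of 7 fibroblast markers rose. Of 12 macrophage markers 2 rose and 2 fell, and of 4 airway markers 1 rose and 1 fell. In KO against Con (1.44%), 1 of 5 lymphatic and 1 of 7 fibroblast markers fell and 1 of 12 macrophage markers rose. Rnf5 was added for its position and the pluripotency genes after their values were seen, and Cdh5 and Pecam1 as defining endothelial markers. Alternatives were DESeq2 1.42.0 and its size factors, library size alone, Rn45s removed, no filter, a replicate block, models of 2 groups, an adjusted p and the omission of each library. Python 3.11.15, pandas and matplotlib were used for promoters and figures.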

Additional observations from a re-analysis of the deposited data

How the results depend on the processing

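With 3 libraries per group and a common dispersion of 2.08, single libraries carried much of each result. The number of members passing the threshold in BLM against Con was 0, and became 1 (Igfbp2) with no filter on low counts and 2 (Pdpn and Emp2) in a model of the 2 groups alone, and in KO against Con it was 1, and became 0 with an adjusted p and 2 in the model of the 2 groups (Ager and Clic5). In KOBLM against BLM it went from 0 to 1 with no filter (Igfbp2), in KOBLM against KO from 0 to 1 in the model of the 2 groups (Clic5), and for the interaction from 0 to 1 with no filter (Clic5). Deviations of same-numbered libraries from their group means correlated by -0.117 to 0.096 in 18 pairs. Those of different-numbered libraries correlated by -0.103 to 0.150 in 36 pairs. With 3 libraries per group these values cannot settle whether the replicate numbers pair the samples. With the replicate number as a block, 2 members passed in KO against Con (Ager and Emp2) and 1 for the interaction (Emp2), and signs turned for Aqp5 in BLM against Con (-1.16), Akap5 in KO against Con (-0.052), Hopx in KOBLM against BLM (0.82) and for the interaction (0.12), and Pdpn in KOBLM against KO (0.13). With library size alone, which moved the median of all genes in KO against Con from -0.09 to -0.21, signs turned for Aqp5 in BLM against Con (-0.0058) and Akap5 in KO against Con (-0.17). The cause of these shifts was not tested. Results without each library in turn covered 0 to 1 members in BLM against Con, 0 to 2 in KO against Con, 0 to 1 in KOBLM against BLM, 0 to 1 in KOBLM against KO and 0 to 2 for the interaction, and omission of 7 of the 12 libraries changed a call (Con 2, BLM 1, BLM 3, KO 1, KO 2, KOBLM 1 and KOBLM 2). With signs turned, log2 fold changes ran over these omissions from -0.86 to 1.42 for Ager (interaction), -1.34 to 0.14 (interaction), -0.93 to 0.52 (KO against Con) and -0.12 to 1.33 (KOBLM against KO) for Akap5, and -0.53 to 3.03 (BLM against Con) and -1.06 to 2.60 (KO against Con) for Aqp5. They ran from -0.0056 to 2.39 for Emp2 (KOBLM against KO), -1.27 to 0.11 (interaction), -0.14 to 1.05 (KO against Con) and -0.70 to 0.67 (KOBLM against BLM) for Hopx, and -4.60 to 3.91 (interaction), -5.00 to 1.93 (KO against Con) and -2.55 to 5.92 (KOBLM against KO) for Pdpn. Rtkn2 has no value where a group had no library above the floor. Over all genes, DESeq2 passed 947, 374, 755, 460 and 625 in the 5 comparisons, edgeR 558, 188, 413, 221 and 368, the block 394, 100, 262, 100 and 242, the models of 2 groups 380, 228, 149 and 138, and no filter 771, 229, 645, 257 and 706. The summed level of the members moved by less than 1 SD under each alternative, the sum without Igfbp2, chosen after seeing the data, included.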
